A study of Mus musculus with 24 samples.

Results

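The Hedgehog pathway genes of mouse lacrimal gland (LG) and of lacrimal gland stem cell (LGSC) spheres were followed by RNA sequencing. The set holds 9 genes, chosen by name and matched to the Ensembl identifiers of the expression tables, out of 63862 genes listed. They were 3 ligands (Shh, Ihh and Dhh), the receptor Ptch1, the transducer Smo, 3 transcription factors (Gli1, Gli2 and Gli3) and the ligand-binding decoy Hhip, and all 9 were found. The tissue groups were E17.5 LG, E19.5 LG and adult LG (3 libraries each). The cultures were LGSC spheres of passage 2, sequenced on day 5 (2 libraries), 7, 10 and 14 (3 libraries each). All came from C57BL/6 mice. The spheres were grown from LG of 6- to 8-week-old mice in Matrigel with serum-free medium holding EGF, FGF10, Wnt3A and Y-27632, so they started from dissociated whole gland and had been passaged before they were sequenced. One further library, of passage 10 LGSC spheres at day 7 (1 library), was made against another gene list and entered no test. The labels do not say how many animals or cultures stand behind a library, so p-values measure the spread between these libraries.

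Hedgehog ligands are secreted, lipid-modified proteins. Without a ligand, Ptch1 holds Smo inactive. Once ligand binds Ptch1, Smo gathers in the primary cilium, Gli2 and Gli3 are spared from processing into repressors, and the active Gli proteins switch on Gli1, Ptch1 and Hhip, whose transcripts are the usual readout of pathway activity. In developing glands the ligands often come from epithelium and are read by the surrounding mesenchyme, while Dhh is best known from Schwann cells and Ihh from cartilage.

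Values are FPKM (fragments scaled to exon length and to library size). Ranks between genes are ranks of listed values only, because many genes were listed near 0, as described below. The 20 passage 2 and tissue libraries rested on 6434734 to 9258020 reads recovered from the FPKM steps, and the passage 10 library on 25181804. Some features of the libraries bear on the results. Many genes were listed at or near 0 in the 20 libraries although such cells use them, such as Epcam (listed at 0 in all 20 against 261 FPKM at passage 10), Gsk3b (0.0422 to 0.343 against 15.4 FPKM) and Krt14 (0.236 to 17.8 against 7070 FPKM). Of 5333 genes with at least 10 FPKM at passage 10, 2696 (50.6%) had a day 7 mean less than 0.1 times that value. A low FPKM in the 20 libraries is therefore given as a listed value, above all for Shh, Ptch1, Gli1 and Gli3. The replicate 2 libraries of the culture stood apart. Their correlation with the other libraries of the same day was 0.874 to 0.927 over 11746 genes, against 0.953 to 0.97 between replicates 1 and 3. They had 130 to 176 FPKM of Krt18, a keratin of simple epithelium, against 689 to 1730 FPKM in the other 7 LGSC libraries. In adult LG, 10 genes held 60.4% and 59.6% of all reads of replicates 1 and 2 and 31.3% of those of replicate 3, so the scale of the deposited values matters for adult LG. The 5 lacrimal acinar markers summed to 247000 to 1550000 FPKM in adult LG and to at most 98.3 FPKM in any embryonic or LGSC library. Mucl2 and Scgb2b2 carried the adult sum. Adult LG was listed at no more than 0.568 FPKM of Aqp5, at 0.961 to 6.65 FPKM of Ltf and at 0 of Bhlha15. Ltf overlapped between adult LG and LGSC day 14 (1.27 to 3.21 FPKM).

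The upstream sequences of the 3 genes that could be tested (Gli2, Smo and Dhh) are shown because the comparisons below turn on them. They are the 250 bases before the RefSeq start in GRCm38.p6, read 5′ to 3′ on the strand of the gene. In GENCODE M21, on GRCm38, the genes span chr1:118834132-119053619 (Gli2), chr6:29735503-29761365 (Smo) and chr15:98891152-98898540 (Dhh). Capitals mark CCACCC or its reverse complement GGGTGG, the inner letters of the sequence GACCACCCA that Gli proteins bind.
Gli2 (chr1:119053620-119053869, minus strand): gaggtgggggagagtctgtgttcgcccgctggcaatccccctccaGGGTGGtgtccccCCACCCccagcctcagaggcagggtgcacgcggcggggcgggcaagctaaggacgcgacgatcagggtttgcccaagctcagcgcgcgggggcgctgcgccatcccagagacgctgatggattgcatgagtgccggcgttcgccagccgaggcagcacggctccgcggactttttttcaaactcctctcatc
Smo (chr6:29735247-29735496, plus strand): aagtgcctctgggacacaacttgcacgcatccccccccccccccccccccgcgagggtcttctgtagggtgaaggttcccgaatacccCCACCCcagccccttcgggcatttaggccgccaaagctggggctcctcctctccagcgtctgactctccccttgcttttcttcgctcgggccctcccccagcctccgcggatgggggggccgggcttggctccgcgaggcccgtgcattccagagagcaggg
Dhh (chr15:98898541-98898790, minus strand): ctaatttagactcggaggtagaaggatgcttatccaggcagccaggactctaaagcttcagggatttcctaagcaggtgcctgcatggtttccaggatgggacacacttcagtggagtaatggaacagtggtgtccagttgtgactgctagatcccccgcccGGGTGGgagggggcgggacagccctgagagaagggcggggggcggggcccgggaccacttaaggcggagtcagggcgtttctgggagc
The full 9 letters, searched on both strands, were in 0 of the 7 Hedgehog gene windows that RefSeq held (Ihh, Dhh, Ptch1, Smo, Gli2, Gli3 and Hhip) and in 0.225% of all 32851 windows. The inner 6 letters, which also match the CACCC boxes of other factors, were in 6 of the 7 windows and in 28.1% of all windows. Gli2 carried 2 copies, starting 205 and 192 bases before the start, Smo carried 1 at 162 bases and Dhh 1 at 88 bases. The GC content of the 3 windows was 67.2% for Gli2, 68.4% for Smo and 59.6% for Dhh, against a median of 52.4% over all windows. These matches describe letters only and show no binding.

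Gli2, the main activator of Hedgehog target genes, was high in embryonic LG and near the bottom of the range in adult LG. It had 22, 21.8 and 19.1 FPKM in the 3 E17.5 LG libraries, 15.3, 12.5 and 13.3 FPKM in the 3 E19.5 LG libraries, and 0.603, 0.735 and 1.60 FPKM in the 3 adult LG libraries. The lowest embryonic library stood above the highest adult one, and the 3 stages did not overlap. The means were 21 ± 1.60, 13.7 ± 1.42 and 0.981 ± 0.543 FPKM (SD, n = 3), so that E17.5 LG was 21.4-fold and E19.5 LG 14.0-fold above adult LG. These ratios were 33.1 and 20.0 when scaled to recovered reads. On the log2(FPKM + 1) scale the difference was 3.50 (standard error 0.20, limma adjusted p = 2.95e-06) at E17.5 and 2.92 (standard error 0.20, limma adjusted p = 9.08e-06) at E19.5. Between E19.5 and E17.5 LG the log2 difference was -0.59 (95% interval -1.03 to -0.14), and it did not pass over all genes (limma adjusted p = 0.198, unadjusted p = 0.0165). That last call turned on 1 library, since without adult LG replicate 3, which shares the fit, the adjusted p was 0.0186.

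Gli2 was thus 1 of the 3 tested Hedgehog genes called between E17.5 and adult LG, where 54.0% of all 18578 genes tested were called, and 1 of 3 between E19.5 and adult LG, where 54.2% were called. Between E19.5 and E17.5 LG 0 of 3 were called by limma, with 1 of 3 at an unadjusted p under 0.05, 0 by limma-voom, and 1.74% of all genes were called. Embryonic LG also held far more RNA of mesenchyme. The 9 fibroblast and mesenchyme markers summed to 4710 to 5690 FPKM in the 6 embryonic libraries and to 165 to 323 FPKM in adult LG, with 7 of the 7 tested markers higher at both stages. The 7 cartilage and bone markers summed to 198 to 322 FPKM in embryonic and to 0.209 to 18.3 FPKM in adult LG, with 3 of 3 tested higher at both stages. Col9a1 and, at E17.5, Col2a1 carried the embryonic sum, while Acan, Matn1, Col10a1 and Ibsp had at most 0.396 FPKM there. The 5 skeletal muscle markers summed to 4.89 to 23.2 FPKM in embryonic and to 0.285 to 1.48 FPKM in adult LG. Of these, 2 of 3 tested were higher at E17.5 and 1 of 3 at E19.5. Pdgfra, Col1a2 and Twist2 (adult means 0.276, 0.222 and 0.172 FPKM) reached the mean of 0.5 FPKM needed for a test through embryonic values. So did Col2a1, Sp7 and Myh3 (0.0594, 0.114 and 0.0289 FPKM). The filter thus favoured the higher direction, and nothing is read from the counts of tested markers. The part of these cells in the Gli2 result was not tested. In whole tissue more cells of a type and more RNA per cell cannot be told apart.

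**Figure D1:**
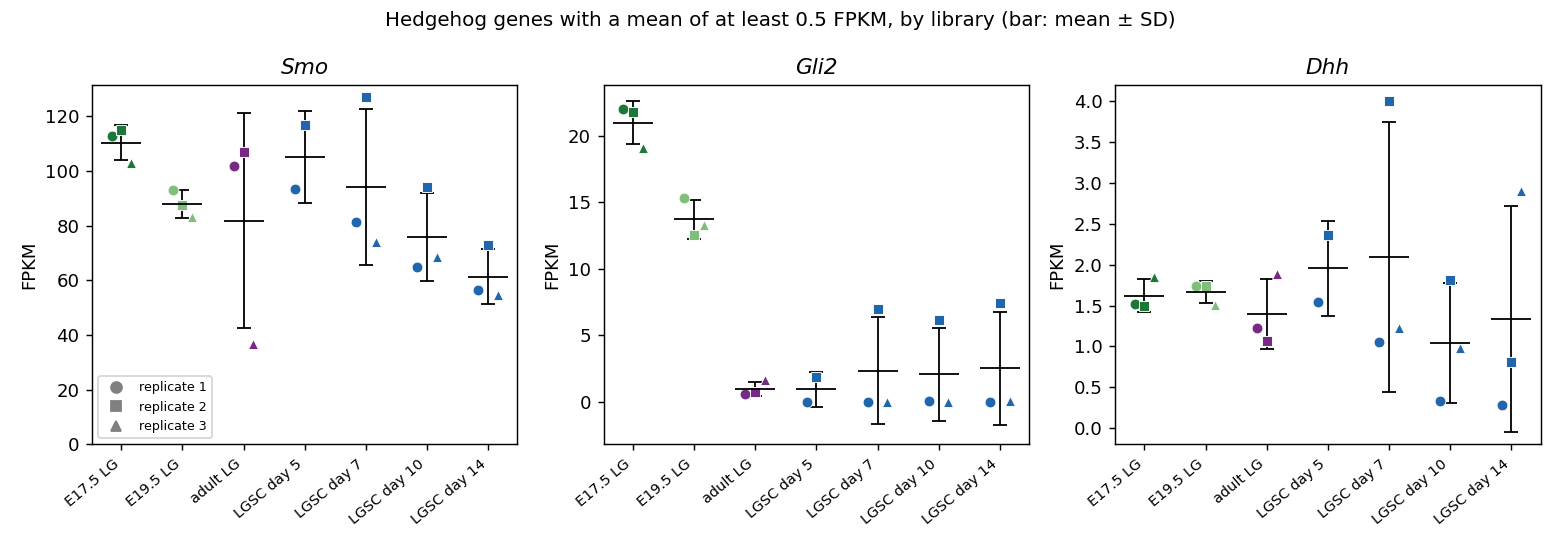
FPKM of Smo, Gli2 and Dhh (y axes) in the 20 libraries by group (x axis), 1 marker shape per replicate number, with the group mean ± SD as bars. Gli2 lies at 12.5 to 22 FPKM in embryonic LG and at 0.603 to 1.60 FPKM in adult LG, and in LGSC spheres it exceeds 1 FPKM in replicate 2 libraries alone.

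In LGSC spheres Gli2 was seen in 1 replicate of each day. In day order, the 4 replicate 2 libraries had 1.85, 6.98, 6.12 and 7.43 FPKM, from 86, 375, 324 and 454 reads. The other 7 libraries were listed at 0 to 0.0876 FPKM, from at most 5 reads each. The spread between replicates was thus wider than any difference between days. The log2 difference between day 14 and day 7 was 0.06 (95% interval -2.68 to 2.79, limma adjusted p = 0.991), and that between day 7 and adult LG was 0.05 (95% interval -1.89 to 2, limma adjusted p = 0.963). The latter had no stable direction. It was -0.94 (limma adjusted p = 0.0588) without day 7 replicate 2, -1.20 with a pseudocount of 0.1 and -3.34 by limma-voom (adjusted p = 0.217). The slope over culture days was 0.02 log2 units per day (95% interval -0.23 to 0.28, limma adjusted p = 0.939), and with the replicate number as a block it was 0.06 (limma adjusted p = 0.362).

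The sum of the mesenchyme markers overlapped between the replicate 2 and the other libraries. The 9 fibroblast and mesenchyme markers summed to 0.679 to 1.74 FPKM there and to 0.37 to 1.35 FPKM in the other LGSC libraries, with Lum at most at 0.0492 FPKM in any LGSC library. Of the 9, Twist2, a factor of dermal and other mesenchyme, did not overlap (0.121 to 0.325 FPKM in replicate 2 and 0 to 0.0741 FPKM in the others). The 4 endothelium markers summed to 0.105 to 0.364 FPKM in replicate 2 and to 0 to 0.048 FPKM in the others. The 7 epithelium markers summed to 553 to 732 FPKM in replicate 2 and to 1370 to 2650 FPKM in the others, a sum carried by Krt18 and Cdh1. Keratins of basal epithelium went the other way, with Krt5 at 2.05 to 5.52 FPKM in replicate 2 and 0.395 to 1.54 FPKM in the others, and Krt14 at 8.18 to 17.8 and 3.35 to 11.9 FPKM. The 3 myoepithelium markers summed to 1.02 to 4.77 and to 9.35 to 181 FPKM. Of the 9 target genes of mesenchyme, 2 were higher in replicate 2 without overlap and the other 7 overlapped. The share of all genes without such overlap was not computed, so nothing is read from this count. Foxf2, a forkhead factor of Hedgehog-responding mesenchyme, had 5.28 to 7.49 FPKM in replicate 2 and 0.095 to 0.896 FPKM in the others. Bmp4 had 0.175 to 0.398 and 0 to 0.156 FPKM. Foxf1, a close relative of Foxf2, had 0.0465 to 0.212 and 0.0462 to 0.402 FPKM, and Osr1 had 0.109 to 0.309 and 0.157 to 2.76 FPKM. All genes named here were picked after their values were seen.

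**Figure D2:**
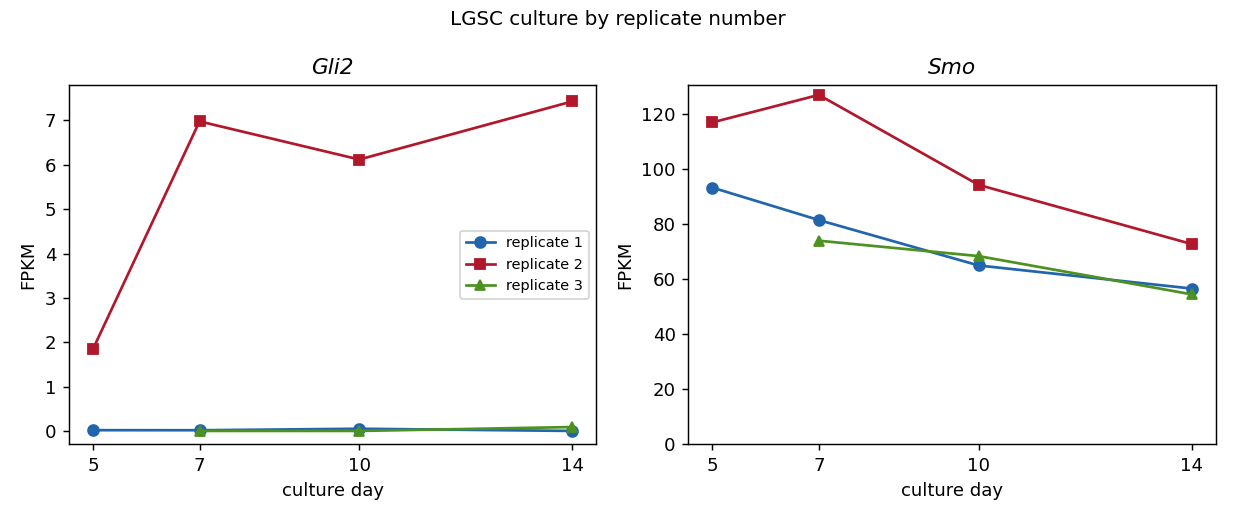
FPKM of Gli2 (left) and Smo (right) against culture day in LGSC spheres, with libraries of the same replicate number joined by lines. Gli2 is at 1.85 to 7.43 FPKM in replicate 2 and at most at 0.0876 FPKM in the others, while Smo is highest in replicate 2 on every day.

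The genes with the pattern most like Gli2 over all 20 libraries were Islr2 (Pearson r = 0.964), S1pr3 (0.959), Slc24a3 (0.959), 3110099E03Rik (0.957) and Slc38a3 (0.945). S1pr3, a receptor for sphingosine 1-phosphate, had mean values of 50.5, 34.7 and 3.63 FPKM in E17.5, E19.5 and adult LG, and 1.85 to 6.97 FPKM in replicate 2 against 0.076 to 0.485 FPKM in the other LGSC libraries. Over the 11 LGSC libraries alone the closest were Slc16a14 (r = 0.998), Gja3 (0.985), S1pr3 (0.984), Zfp185 (0.980) and Golga7b (0.979). Of these, Slc16a14, Gja3 and Golga7b had under 0.3 FPKM on average at both embryonic stages, where Gli2 was highest. These likenesses were computed after the Gli2 values had been seen. The libraries share stage and replicate number, and no p is given.

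Smo, the membrane protein that carries the signal past Ptch1, had the highest listed value of the set in every one of the 20 libraries. It had 113, 115 and 103 FPKM in E17.5 LG and 93.2, 87.7 and 83.1 FPKM in E19.5 LG. Adult LG had 102, 107 and 36.6 FPKM, so adult replicate 3 lay far below the other two and the adult range held all of the E19.5 values. The means were 110 ± 6.39, 88.0 ± 5.07 and 81.9 ± 39.3 FPKM (SD, n = 3). The log2 difference from adult LG was 0.57 (95% interval -0.25 to 1.40, limma adjusted p = 0.212) at E17.5 and 0.25 (95% interval -0.58 to 1.07, limma adjusted p = 0.587) at E19.5, and neither passed.

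The Smo comparison with adult LG turned on the scale. When FPKM were divided by the ratio of each library's recovered reads to the deposited scale, which was 2.67 and 2.57 in adult replicates 1 and 2 and 1.10 in replicate 3, Smo came to 38.3, 41.6 and 33.2 in adult LG. On that scale it was 117, 120 and 106 in E17.5 LG and 92.8, 86.2 and 74.1 in E19.5 LG, and the stages did not overlap. The E17.5 mean was 3.02-fold and the E19.5 mean 2.24-fold above adult LG. The log2 differences were 1.58 (limma adjusted p = 4.31e-05) and 1.14 (limma adjusted p = 0.000289), where the median over all genes moved to 0.64 and 0.58 from 0.05 and 0.09. On this scale 59.5% and 56.8% of all genes were called. With median-ratio scaling, which assumes that most genes keep their level, they were 0.54 and 0.11 and did not pass (limma adjusted p = 0.174 and 0.784). On the deposited scale without adult LG replicate 3, the E19.5 difference was -0.25 (limma adjusted p = 0.0400), so its direction turned. No direction between embryonic and adult LG is therefore given for Smo.

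**Figure D3:**
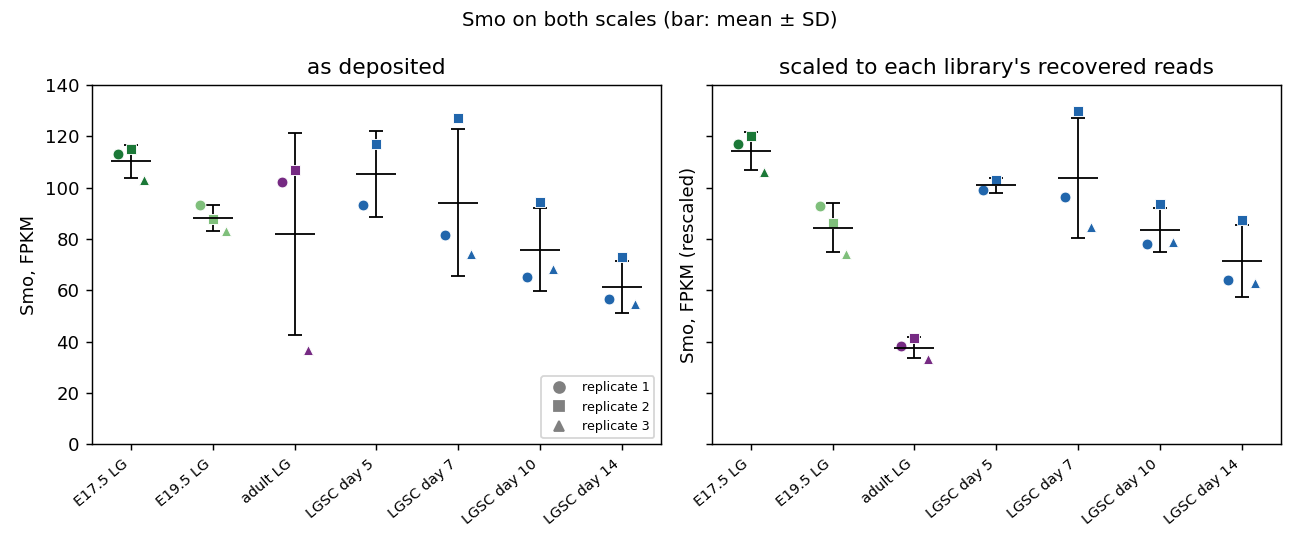
Smo in the 20 libraries by group (x axis), as deposited (left) and divided by the ratio of recovered reads to the deposited scale (right), in FPKM on a shared y axis from 0, with the mean ± SD as bars. Adult LG replicates 1 and 2 move from 102 and 107 to 38.3 and 41.6, and replicate 3 from 36.6 to 33.2.

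As deposited, Smo in LGSC spheres had lower means on later culture days. Day 5 libraries had 93.3 and 117 FPKM. Day 7 libraries had 81.5, 127 and 74.0 FPKM. Day 10 libraries had 65.0, 94.3 and 68.4 FPKM, and those of day 14 had 56.6, 72.8 and 54.5 FPKM. Replicate 2 was the highest of each day and each replicate number ended below where it began, although the days overlapped. The means were 105 ± 16.5 (n = 2), 94.2 ± 28.8, 75.9 ± 16 and 61.3 ± 10.0 FPKM (SD, n = 3). Scaled to recovered reads they were 101, 104, 83.5 and 71.4, so day 7 was not below day 5 on that scale. The slope was -0.085 log2 units per day (standard error 0.024) and did not pass without the block (limma adjusted p = 0.0866, unadjusted p = 0.00403). Scaled to recovered reads, the slope without the block was -0.064 (95% interval -0.11 to -0.02) and did not pass either. In culture the deviations of same-numbered libraries went together. With the replicate number as a block, the slope on the deposited scale was -0.078 (95% interval -0.11 to -0.05) and passed (limma adjusted p = 0.0097).

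Smo was then 1 of 3 tested Hedgehog genes called over the culture days, where 5.02% of 15584 genes were called with the block. Without the block 0 of 3 were called by limma, with 1 of 3 at an unadjusted p under 0.05, 0 by limma-voom, and 2.14% of all genes were called. Leaving out the 4 replicate 2 libraries, an alternative added after seeing the data, gave a slope of -0.076 (limma adjusted p = 0.0376, no block), with 1.83% of all genes called. Over days 7, 10 and 14 alone the slope was -0.08 and did not pass (limma adjusted p = 0.373), and 0 of all genes passed there. Between day 14 and day 7 the log2 difference was -0.58 (95% interval -1.17 to 0.00, limma adjusted p = 0.501, and 0.310 with the block). There 0 of 3 Hedgehog genes (0 at an unadjusted p under 0.05) and 0.0% of all 15744 genes were called by limma, with 1557 genes at an unadjusted p under 0.05 and 0 called by limma-voom.

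Between day 7 spheres and adult LG, 0 of the 3 tested Hedgehog genes were called by limma, with 0 of 3 at an unadjusted p under 0.05 and 0 by limma-voom, where 35.2% of 17698 genes were called. The Smo difference was 0.31 log2 units (95% interval -0.80 to 1.42, limma adjusted p = 0.633). Scaled to recovered reads it was 1.42 (limma adjusted p = 0.00369), with 44.0% of all genes called and a median over all genes of 0.60, so here too the scale of the adult libraries decided the call. The passage 10 library was listed at 25.5 FPKM of Smo, below all 20 libraries. Passage and gene list differ together there, so this rank is not read as a lower level of Smo.

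Dhh, the ligand of Schwann cells and gonads, had the highest listed values of the Hedgehog ligands, at a low level in all groups. It had 1.52, 1.49 and 1.85 FPKM in E17.5 LG, 1.74, 1.74 and 1.51 FPKM in E19.5 LG and 1.23, 1.07 and 1.89 FPKM in adult LG, from 7 to 37 reads a library. The log2 difference from adult LG was 0.14 (95% interval -0.21 to 0.50, limma adjusted p = 0.465) at E17.5 and 0.17 (95% interval -0.19 to 0.53, limma adjusted p = 0.392) at E19.5. Scaled to recovered reads, the ratio of means to adult LG moved from 1.17 to 1.95 at E17.5 and from 1.19 to 1.86 at E19.5, and neither difference passed (limma adjusted p = 0.0724 and 0.0954). Among LGSC spheres, day 5 libraries had 1.54 and 2.37 FPKM, day 7 libraries 1.05, 4 and 1.23 FPKM, day 10 libraries 0.335, 1.81 and 0.978 FPKM, and day 14 libraries 0.285, 0.808 and 2.90 FPKM. The groups overlapped throughout. The slope over culture days was -0.06 log2 units per day (95% interval -0.17 to 0.05, limma adjusted p = 0.526). The passage 10 library had 1.69 FPKM (177 reads).

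The 7 Schwann cell markers summed to 53.2 to 61.8 FPKM in E17.5 LG, 45.2 to 54.7 FPKM in E19.5 LG, 16.1 to 35.6 FPKM in adult LG and 11.5 to 23.3 FPKM in LGSC spheres, where Mbp made up 10.4 to 21.5 FPKM. Sox10, the defining factor of the lineage, was listed at 0 in all 20 libraries.

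Ihh, the ligand of growing cartilage, stayed under the mean of 0.5 FPKM needed for a test. It was listed at 0.225 to 0.615 FPKM in the 6 embryonic libraries (median 0.336, 6 to 15 reads), at 0, 0.310 and 0.344 FPKM in adult LG and at 0.0354 to 0.462 FPKM in the 11 LGSC libraries (median 0.222, 1 to 11 reads). The 3 kinds of sample overlapped. The cartilage and bone markers are given above. Col2a1, the main collagen of cartilage, had 72.7 to 97.9 FPKM at E17.5 and 6.84 to 8.41 FPKM at E19.5. Its change beside Ihh was not tested. Shh, the ligand of many budding epithelia, was listed at 0 in 19 of the 20 libraries and at passage 10, and at 0.146 FPKM (4 reads) in E17.5 LG replicate 2.

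Hhip and Ptch1 are induced by Gli proteins and bind the ligand. Hhip had 0.142, 0.286 and 0.317 FPKM in E17.5 LG and 0.441, 0.294 and 0.365 FPKM in E19.5 LG. Adult LG was listed at 0, 0.139 and 0.0144 FPKM, and LGSC spheres at 0 to 0.129 FPKM (35 reads over 11 libraries). All 6 embryonic libraries, with 10 to 35 reads each, lay above all adult and LGSC libraries. The margin was narrow, with 0.142 FPKM (10 reads) in E17.5 replicate 1 against 0.139 FPKM (4 reads) in adult replicate 2. Ptch1 was listed at 0.181, 0.110 and 0.123 FPKM in E17.5 LG, 0.0564, 0.0314 and 0.0809 FPKM in E19.5 LG and 0, 0.0445 and 0.0462 FPKM in adult LG. LGSC spheres had 0.0520 to 0.239 FPKM (5 to 30 reads). Both day 5 libraries (0.0520 and 0.0829 FPKM) were below those of days 7 and 10, but day 14 (0.0763 to 0.190 FPKM) overlapped day 5. Ptch1 was not tested between days in the filtered fits. Without the filter its slope was 0.0 log2 units per day (limma adjusted p = 0.903). Its log2 difference between day 14 and day 7 was then -0.05 (limma adjusted p = 0.825).

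Gli1, which is transcribed in response to the pathway, and Gli3, its main repressor, were close to 0. Gli1 was listed at 0.0415 to 0.129 FPKM in the 6 embryonic libraries (2 to 5 reads each), at 0 in all 3 adult LG libraries and at 0 in 8 of 11 LGSC libraries. Gli3 was listed at 0 in 14 of the 20 libraries and at most at 0.0536 FPKM (4 reads). When the filter on low values was dropped, Ptch1 (log2 difference 0.14, limma adjusted p = 0.0317) and Gli1 (0.13, limma adjusted p = 0.0313) passed between E17.5 and adult LG and Hhip did between E19.5 and adult LG (0.38, limma adjusted p = 0.0146). Hhip at E17.5 (0.25, limma adjusted p = 0.0762) and Ptch1 and Gli1 at E19.5 (limma adjusted p = 0.567 and 0.134) did not. Together with Gli2 this made 3 of 9 Hedgehog genes at E17.5 and 2 of 9 at E19.5, close to the 29.1% and 28.0% of all 39835 genes called without the filter, so nothing is read from these counts. Adult LG replicates 1 and 2 are the shallowest for such genes, because 60.4% and 59.6% of their reads fell on 10 genes.

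**Figure D4:**
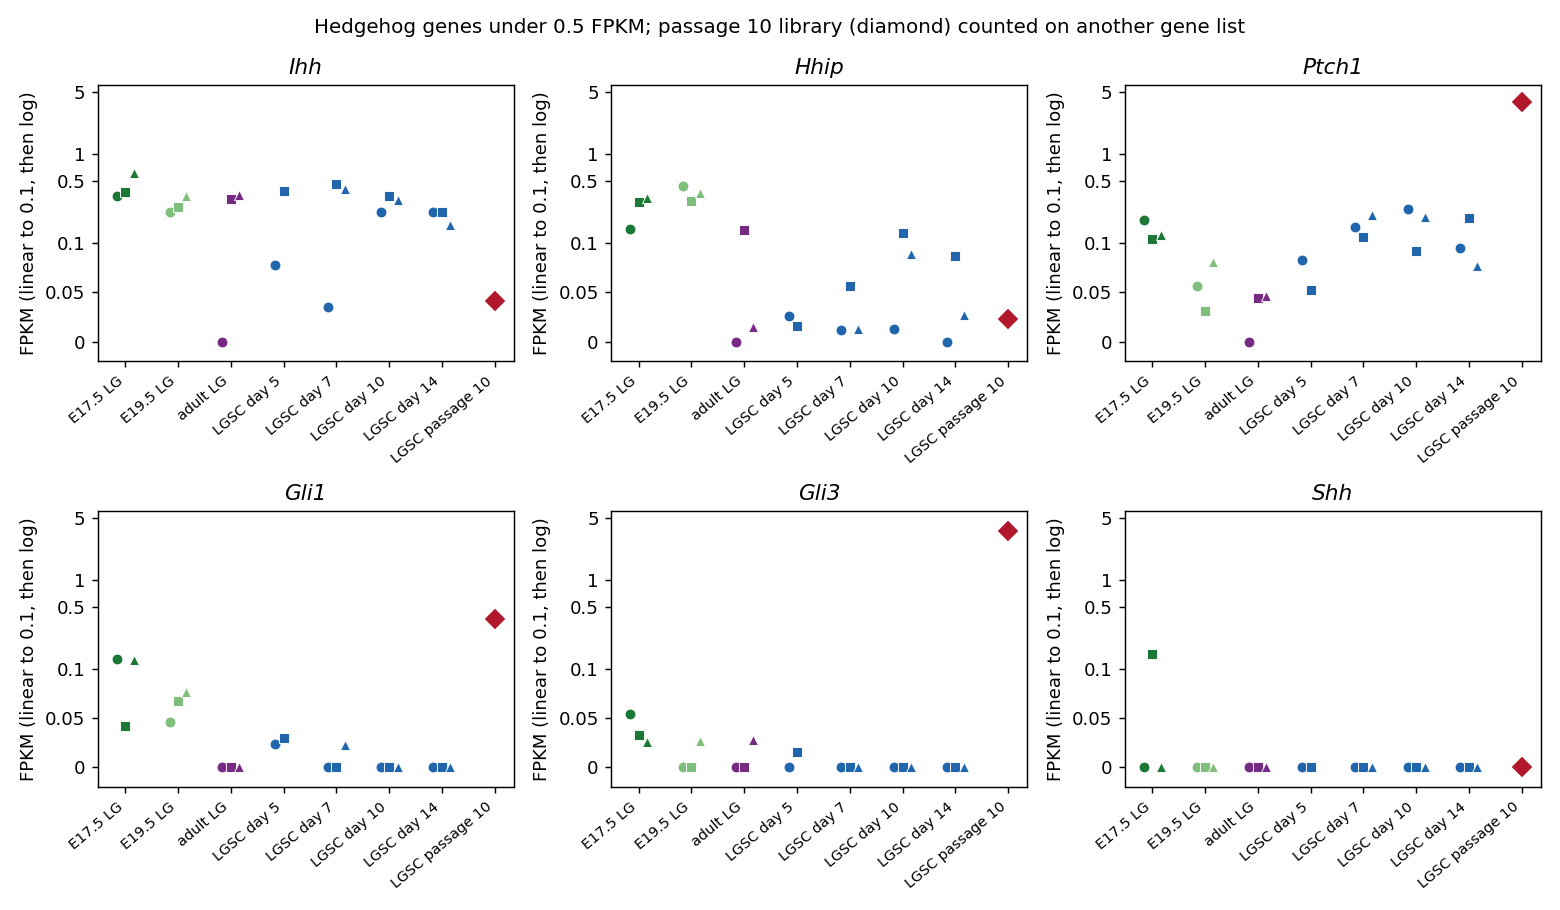
FPKM of the 6 Hedgehog genes under a mean of 0.5 FPKM by library and group (x axis), on a y axis that is linear to 0.1 and logarithmic above, with the passage 10 library as a diamond. Hhip lies at 0.142 to 0.441 FPKM in embryonic LG, and Ptch1 and Gli3 reach 3.83 and 3.52 FPKM at passage 10 alone.

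The genes most like Hhip over the 20 libraries were Sfrp4 (r = 0.935), Rgs13 (0.922), Adamts19 (0.917), Gm12688 (0.916) and 2810433D01Rik (0.915), all of which had higher means at E19.5 than at E17.5. For Gli1 they were Alg13, Slc4a1, Mir483, Agps and Klf14 (r = 0.893 to 0.900), and for Ptch1 they were Gm16892, Gm17812, Uhrf2, Tnik and 1700109K24Rik (r = 0.751 to 0.838). Those of Gli1 and Ptch1 rest on 23 and 259 reads over 20 libraries, and no p is given for any.

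Of 36 other genes of the pathway, 23 passed the filter in the tissue libraries. Some of these averaged under 0.5 FPKM in adult LG and passed it through embryonic values, which favours higher calls there. Between E17.5 and adult LG 15 rose and 4 fell, with 4 not called, while 29.1% of all genes tested were higher and 24.9% lower. At E19.5, 15 exceeded adult LG and 5 were below it, with 3 not called, against 30.3% and 23.9% of all genes. The median log2 difference of the 23 was 1.33 at E17.5 and 1.15 at E19.5, against 0.05 and 0.09 over all genes. Scaled to recovered reads, 16 rose and 3 fell in E17.5 LG, and 17 and 2 in E19.5 LG, with medians of 1.57 and 1.31 beside 0.64 and 0.58 over all genes. Between E19.5 and E17.5 LG 0 of 23 were called by limma and by limma-voom.

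Co-receptors that help Ptch1 bind ligand were among those with the largest differences. Gas1, a membrane-anchored co-receptor, had 82.8 to 101 FPKM in E17.5 LG, 76.3 to 130 FPKM in E19.5 LG and 5.18 to 19.0 FPKM in adult LG, with log2 differences of 3.31 and 3.50 (limma adjusted p = 0.000295 and 0.000236). Cdon, a co-receptor of the immunoglobulin family, had 46.7 to 55.9, 33.2 to 42.1 and 4.41 to 8.74 FPKM, with log2 differences of 2.88 and 2.37 (limma adjusted p = 1.59e-05 and 4.96e-05). Both were above every adult library in every embryonic library. Lrp2, an endocytic receptor that also takes up Shh, went the other way, with 0.877 to 1.98 FPKM at E17.5 and 9.63 to 17.3 FPKM in adult LG, a log2 difference of -2.74 (limma adjusted p = 4.41e-05). Boc, the partner of Cdon, was listed at 0 in all 20 libraries and at 6.61 FPKM at passage 10.

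Genes for ligand release and for the cilium differed as well. All 4 tested genes of ligand processing and release were higher at both embryonic stages, as were 29.1% and 30.3% of all genes tested. Scube2 (adult mean 0.0569 FPKM) reached the filter through embryonic values, so nothing is read from this count. Scube1, a secreted carrier of lipid-modified ligand, had 6.60 to 11.1 FPKM at E17.5 and 0.497 to 2.44 FPKM in adult LG (log2 difference 2.27, limma adjusted p = 0.000422). Of the 8 tested cilium and Gli regulators, 4 rose and 1 fell relative to adult LG in the E17.5 libraries, and for E19.5 these counts were 4 and 2. Kif7, the ciliary kinesin that holds Gli proteins, had 14.3 to 16.9, 12.3 to 13.6 and 0.452 to 1.20 FPKM in E17.5, E19.5 and adult LG, with log2 differences of 3.24 and 2.96 (limma adjusted p = 2.05e-06 and 4.04e-06). Among 7 tested target genes of mesenchyme 4 were higher and 2 lower at both stages. Mycn and Ccnd2 (adult means 0.334 and 0.369 FPKM) reached the filter through embryonic values, so nothing is read from this count either. Osr1, a zinc-finger factor of mesenchyme, had 63.6 to 81.7, 59.9 to 69.1 and 3.21 to 19.9 FPKM, with log2 differences of 3.01 and 2.79 (limma adjusted p = 0.000878 and 0.00141). Bmp4, a growth factor that Hedgehog signals induce in gut mesenchyme, had 1.39 to 2.10 FPKM at E19.5 and 5.59 to 30.4 FPKM in adult LG (log2 difference -2.34, limma adjusted p = 0.00404), and on the scale of recovered reads it did not pass (-1.57, limma adjusted p = 0.0754). The mesenchyme markers given above were higher in the same libraries.

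**Figure D5:**
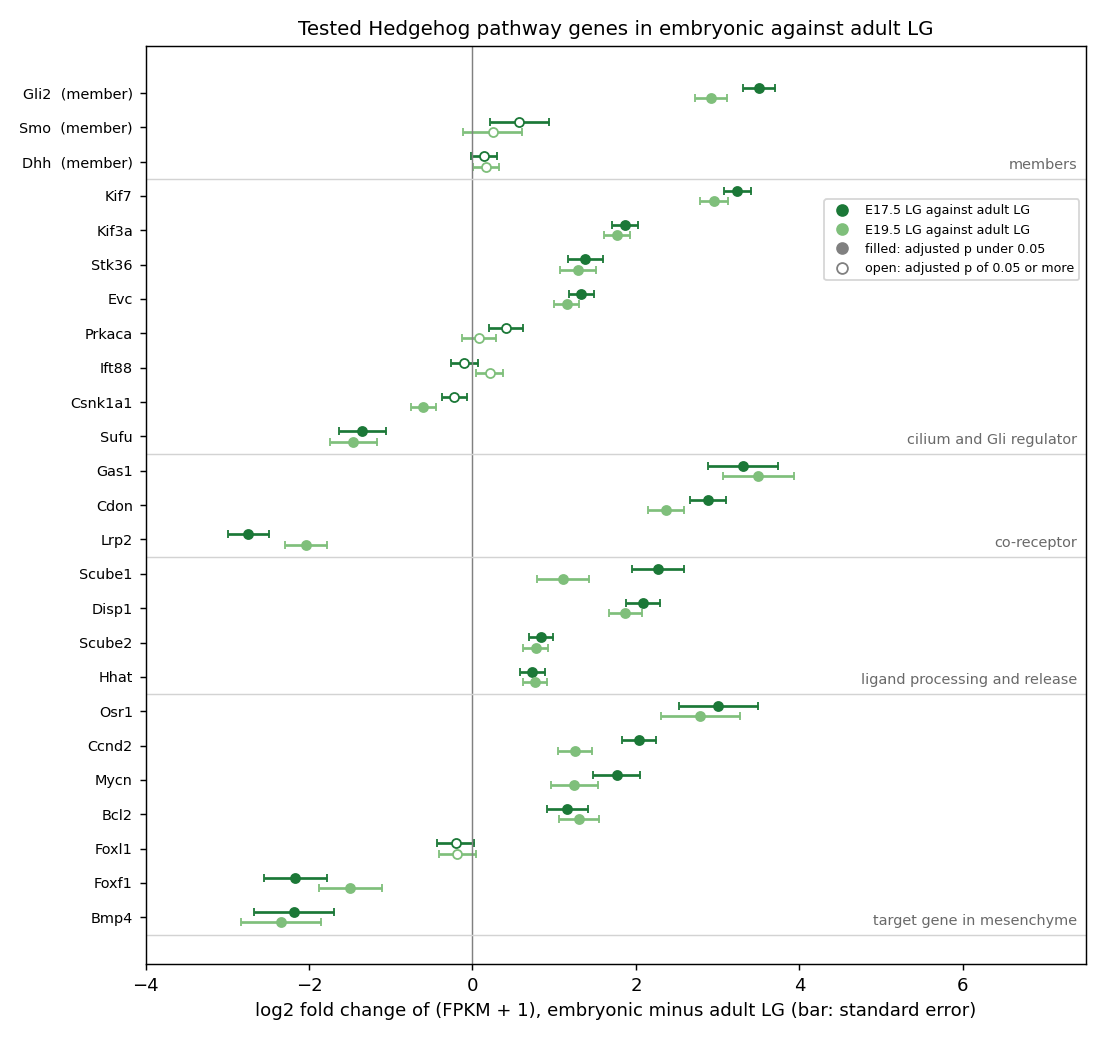
Log2 difference of (FPKM + 1) between embryonic and adult LG (x axis, bar: standard error) for the 3 tested Hedgehog genes and other pathway genes (y axis, by list), dark for E17.5 and light for E19.5, filled where the adjusted p is under 0.05. Gli2 (3.50 and 2.92), Gas1, Kif7, Osr1 and Cdon lie far to the right, and Lrp2, Foxf1 and Bmp4 to the left.

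Between day 7 spheres and adult LG, 23 of the other pathway genes were tested, of which 5 were higher and 5 lower, against 14.2% and 21.1% of all genes. When the values were scaled to recovered reads, 22 were tested, 11 of them higher and 2 lower, so this split turned on the scale of the adult libraries. With the replicate block 2 were higher and 5 lower. Over the culture days and between day 14 and day 7, 0 of the 20 tested were called by limma and by limma-voom.

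At passage 10, counted on the other gene list, Ptch1 had 3.83 FPKM (1291 reads), Gli3 3.52 FPKM (802 reads) and Gli1 0.362 FPKM (43 reads). The 3 passage 2 libraries of the same culture day were listed at 0.117 to 0.205 FPKM of Ptch1, at 0 FPKM of Gli3 and at 0 to 0.0224 FPKM of Gli1. Gli2 had 0.282 FPKM (46 reads) there, between replicate 2 and the other passage 2 libraries. Ihh (0.0414 FPKM, 3 reads) and Hhip (0.0232 FPKM, 5 reads) were low in both. Passage and gene list differ together and cannot be told apart here.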

How the data were processed

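RNA of 3 E17.5 LG, 3 E19.5 LG, 3 adult LG and 12 LGSC libraries was analysed, 21 of the 24 samples listed. The others were not analysed here. Per the labels, poly-A RNA was made into libraries with a NEBNext Ultra kit, and the submitters' processing notes name CASAVA 1.8, HISAT2 2.0.5, featureCounts 1.5.0-p3 and the build NCBIM37. The authors deposited 1 table of FPKM per library, read as FPKM from the values. Identifiers and exon lengths matched GENCODE M21 (52489 of 52636 Ensembl IDs), a GRCm38 annotation, so symbols came from there. Reads were recovered from the FPKM steps, and 98.98% of genes came out whole to within 0.01.

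Tests used limma 3.58.1 (R 4.3.3; lmFit, eBayes with trend) on log2(FPKM + 1), which understates changes of low genes, over genes whose mean in the fit reached 0.5 FPKM, adjusted by Benjamini-Hochberg over all of them, threshold 0.05. The 9 tissue libraries shared a fit. Day 7 against adult LG, day 14 against day 7 and the slope over 11 LGSC libraries had fits of their own. On simulated data, 69.6% of genes changed by 2 log2 units were recovered for E17.5 against adult LG and 79.8% for day 14 against day 7, with 11.8% and 8.97% of the calls false, above the 5% aimed at. For day 7 against adult LG recovery was lowest (56.4%, with 12.1% of the calls false). The simulated reads had the same relative spread for every gene and no replicate effect. The shares therefore do not give the recovery in the real libraries, where replicate 2 of the culture stood apart. Same-numbered libraries deviated together in culture (r = 0.26 to 0.719 in 15 pairs over 4 days, and 0.255 to 0.6 between day 7 and day 14), so the replicate number was also used as a block. In the tissues they did not (r = -0.0788 to 0.0616). Differently numbered pairs in culture ran from -0.606 to 0.438 over the 4 days. Those of replicates 1 and 3 were all positive (0.135 to 0.438), and those with replicate 2 were all negative. The correlations in culture thus mainly set replicate 2 apart and show less about pairing of replicates 1 and 3 by number. The labels do not say what a number marks.

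Other pathway genes are named where they passed between tissue stages, at most 6 a comparison by size of the log2 difference. One gene that entered the counts is not reported here by name. The 5 genes most like Gli1, Ptch1 and Hhip were sought among genes averaging 1 FPKM or more. The members and lists were chosen with earlier results of these data known. Alternatives were a pseudocount of 0.1, no filter, the block, scaling to recovered reads, median-ratio scaling, limma-voom on recovered reads, other sets of libraries and each library left out. Python 3.11.15, pandas 2.3.3, numpy 2.4.6 and matplotlib 3.10.9 were used. Intervals are 95% intervals of the limma fit.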

Additional observations from a re-analysis of the deposited data

Results flagged for a closer look

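In the passage 10 LGSC library, which entered no comparison, Ptch1 had 3.83 FPKM, Gli3 3.52 FPKM and Gli1 0.362 FPKM. Each lay above every passage 2 library of day 7 and rested on more than 3 reads. The groups of 2 or 3 libraries were too small to look for a single outlying library.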

How the results depend on the processing

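The count of called Hedgehog genes moved from 1 to 3 (no filter, of 9 tested, where 29.1% of all genes were called) and to 2 (scaled to recovered reads) between E17.5 and adult LG, and from 1 to 2 between E19.5 and adult LG under both. Scaled to recovered reads it moved from 0 to 1 between day 7 and adult LG. For the slope it moved from 0 to 1 with the replicate block and, in a fit added after seeing the data, without the replicate 2 libraries. Under the block it stayed at 1, 1 and 0 in the tissue comparisons, whose numbers do not pair the libraries, and at 0 between day 7 and adult LG and between day 14 and day 7. With each library left out in turn it ranged from 0 to 2 for E19.5 against E17.5 LG, and from 1 to 2 for E19.5 against adult LG, both through adult LG replicate 3, and kept its value elsewhere. Other pathway genes called between the embryonic stages numbered 0, 1 with all 20 libraries in a fit and 0 to 2 with a library left out, and between day 7 and adult LG 10, and 5 to 11 with a library left out. Scaled to recovered reads, 8450 genes were higher and 1913 lower in E17.5 than in adult LG (5405 and 4634 as deposited), 8054 and 1842 in E19.5 LG (5637 and 4440), and 5490 and 1754 at day 7 (2507 and 3731). The cause was not tested. Gli2 kept its direction and its call against adult LG at both stages under every alternative, with log2 differences of 3.37 to 3.72 and 2.78 to 3.13 when a library was left out.

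The following values changed sign. For Dhh at E19.5 against E17.5 they were -0.044 (recovered reads), -0.039 (median-ratio) and -0.011 to 0.086 (a library left out, with -0.00191 without E17.5 replicate 1). For Dhh they were also 0.067 between day 14 and day 7 without the replicate 2 libraries, and -0.148 to 0.495 between day 7 and adult LG with a library left out. For Gli2 between day 7 and adult LG they were -1.203 (pseudocount 0.1), -3.344 (limma-voom) and, with a library left out, -0.941, -0.081 and -0.024 (range to 0.557). For Gli2 between day 14 and day 7 they were -0.433, -0.444 and -0.946 (range to 1.054), and for its slope -0.017 and -0.082 (range to 0.080), with a library left out. Smo turned to -0.247 (E19.5 LG) and -0.189 (day 7) against adult LG without adult LG replicate 3, with ranges up to 0.512 and 0.570. The count of all called genes for E19.5 against E17.5 went from 323 to 162 (pseudocount 0.1), 100 (block), 186 (recovered reads), 511 (all 20 libraries) and 50 to 1736 (a library left out). For the slope it went from 334 to 82 (no filter), 783 (block), 0 (days 7, 10 and 14) and 11 to 384 (a library left out), between day 14 and day 7 from 0 to 50 (all 20 libraries), and between day 7 and adult LG from 6238 to 3770 to 8135 (a library left out). Of 283 alternative values for single genes, 258 kept direction and call. Genes at 0 to 30 reads a library limit what Ptch1, Gli1, Gli3, Shh, Ihh and Hhip can show.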
